A study of Mus musculus with 12 samples.

Results

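The genes described here are 8 members of the antigen presentation and B cell machinery: the MHC class II chain genes H2-Aa, H2-Ab1 and H2-Eb1, the peptide-loading genes H2-DMa and Cd74, the regulator Ciita, and the B cell receptor genes Cd79a and Cd79b. They were taken by gene symbol from the 2 deposited expression tables, and all 8 of 8 were found among the 23284 genes of each table. They were chosen by their FPKM values in these libraries, above all those of the liver, so their own levels are given as a description with no p. Counts of them past a threshold are given once per tissue and support nothing.

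RNA was taken from NKT cells, lymphocytes whose T cell receptor binds lipids held by CD1d, of C57BL/6 mice. The libraries fall into 4 groups of 3. The liver cKO and thymus cKO groups are CD4- CD8- NKT cells of mice that carry an E8III-Cre transgene, active at the CD4+CD8+ double-positive (DP) stage of thymocytes, and a floxed Rag2 gene, so that NKT cells that need no DP stage (double-negative origin) are what develops. The liver YFP+ and thymus YFP+ groups are CD4- CD8- NKT cells of mice with the same Cre and a Rosa26-loxP-STOP-loxP reporter, which marks cells of DP origin; these mice keep an intact Rag2 gene. The E8III-Cre transgene is thus common to all 4 groups, the origin of the cells and the kind of mouse cannot be told apart, and ages are not given in the sources used here. The sort kept live CD45R- cells stained by CD1d dimer and by an antibody to the beta chain of the T cell receptor. CD45R (B220) is a surface marker of B cells, so the gate was set against them. For the 6 liver libraries the sample title and the sample description name opposite mice. The groups follow the titles, which the column headers repeat, and every liver direction below turns round if the descriptions are right. The labels do not say whether replicates came from separate mice, so p-values measure only the spread between these libraries.

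MHC class II molecules are alpha-beta pairs that show peptides from outside the cell to CD4+ T cells. Cd74 encodes the invariant chain, which fills the groove of a new class II molecule, and H2-DM then removes its remnant and lets peptides bind. CIITA is the coactivator that switches these genes on together, by joining factors already seated on short X and Y elements in their promoters. B cells, dendritic cells and many macrophages use this programme constantly, whereas resting mouse T cells, NKT cells included, are not known for it. Cd79a and Cd79b encode the signalling pair of the B cell receptor.

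Promoters of class II chain and H2-DMb genes are shown because these genes were lower together in liver cKO and the elements that CIITA acts through lie there; that of Cd79a is shown as a B cell gene outside the class II pathway. The sequences are those of RefSeq on build GRCm38.p6, while the expression tables were made on mm9. H2-Ab1, Cd74, Ciita and Cd79b are named only. Each line gives the 250 bases before the transcription start site, 5′ to 3′ along the gene. Capitals mark GATTGG, the core of the Y element (CCAATC on the other strand), and TGANG, the start of an X2-type element, where it stands 15 to 30 bases before GATTGG. Both strands were searched, and where TGANG occurs again inside the first match the capitals run on.
H2-Aa, chr17:34287824-34288073, minus strand: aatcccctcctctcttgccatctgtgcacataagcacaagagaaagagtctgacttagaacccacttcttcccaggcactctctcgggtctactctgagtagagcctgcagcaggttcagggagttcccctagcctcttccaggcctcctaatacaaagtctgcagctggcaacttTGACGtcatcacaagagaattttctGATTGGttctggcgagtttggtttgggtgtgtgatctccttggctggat
H2-Eb1, chr17:34305617-34305866, plus strand: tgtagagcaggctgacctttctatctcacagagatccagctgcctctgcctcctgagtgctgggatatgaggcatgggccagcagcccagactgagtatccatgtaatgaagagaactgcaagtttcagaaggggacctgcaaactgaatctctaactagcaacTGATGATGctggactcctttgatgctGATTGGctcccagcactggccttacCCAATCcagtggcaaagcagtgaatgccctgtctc
H2-DMb1, chr17:34152941-34153190, plus strand: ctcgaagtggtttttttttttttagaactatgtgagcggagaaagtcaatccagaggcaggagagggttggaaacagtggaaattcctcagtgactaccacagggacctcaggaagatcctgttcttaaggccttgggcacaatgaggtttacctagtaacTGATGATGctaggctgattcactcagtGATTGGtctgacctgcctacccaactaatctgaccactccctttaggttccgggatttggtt
H2-DMb2, chr17:34144999-34145248, plus strand: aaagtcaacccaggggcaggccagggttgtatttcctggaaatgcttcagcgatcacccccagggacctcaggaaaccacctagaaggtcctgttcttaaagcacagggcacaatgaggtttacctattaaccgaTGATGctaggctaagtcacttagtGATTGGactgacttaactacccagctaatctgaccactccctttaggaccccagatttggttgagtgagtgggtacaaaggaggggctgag
Cd79a, chr7:24897247-24897496, plus strand: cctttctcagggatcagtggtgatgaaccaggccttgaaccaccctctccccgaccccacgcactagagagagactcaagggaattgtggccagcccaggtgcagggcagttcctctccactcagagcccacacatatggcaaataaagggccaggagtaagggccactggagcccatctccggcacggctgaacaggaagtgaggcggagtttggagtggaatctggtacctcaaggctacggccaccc
The pair of TGANG and GATTGG was found in H2-Aa, at bases -74 to -70 and -49 to -44 from the start site. In H2-Eb1 it lay at -86 to -79 (2 overlapping TGANG) and -60 to -55, and a further GATTGG stood on the opposite strand at -35 to -30. The loading genes H2-DMb1 and H2-DMb2, which are close copies of each other, had it at -89 to -82 with -62 to -57, and at -115 to -111 with -91 to -86. Of 32851 promoter windows of this length, 1.07% held the pair, 14.6% held GATTGG and 84.8% held TGANG. The search letters were settled after these promoters had been read. The H2-Aa, H2-Eb1 and H2-DMb windows thus share this arrangement of letters, which is a description and not evidence of binding. Of 2 windows listed for H2-DMa neither held the pair. The one shown in the map of elements held no GATTGG, and the other held it at -199 to -194. Which start site of H2-DMa these cells use was not tested. These windows therefore do not show whether the H2-DMa promoter in use holds the pair. The Cd79a window held neither the pair nor GATTGG.

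**Figure D1:**
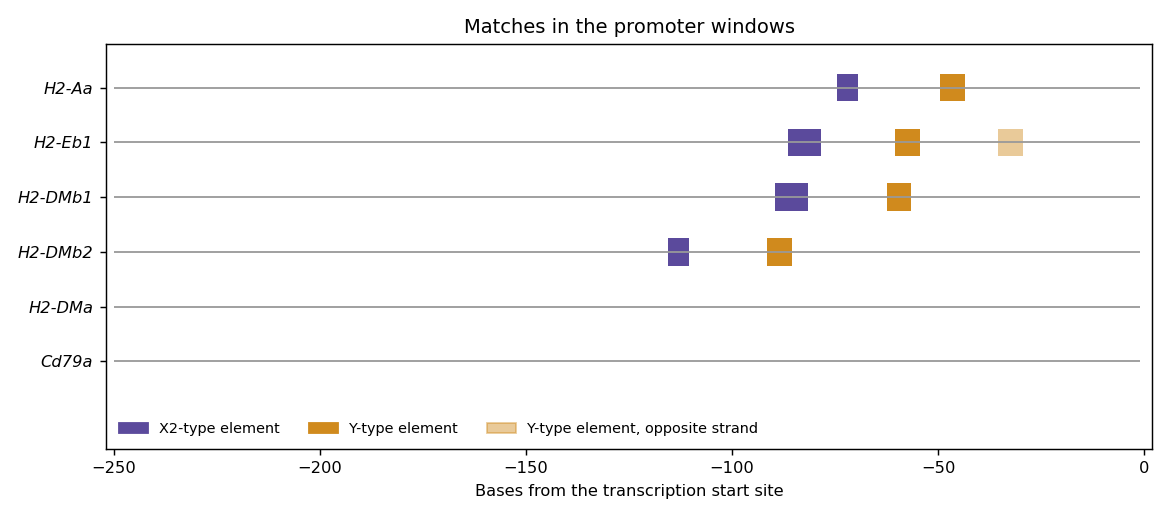
X2-type elements (violet; TGANG that stands 15 to 30 bases before a Y-type element) and Y-type elements (orange; pale on the opposite strand) in the 250 bases before the start site of 6 genes; the horizontal axis is the distance from the start site in bases. In H2-Aa, H2-Eb1, H2-DMb1 and H2-DMb2 the 2 elements lie between -115 and -30, and the H2-DMa and Cd79a windows drawn hold neither the spaced pair nor a Y-type element.

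Values are FPKM, fragments scaled to transcript length and to library size, so levels of different genes can be set side by side within a tissue. The tables of the 2 tissues were normalized separately, and no level is tested across them. A library summed to 450429 to 558042 FPKM in the liver and to 187828 to 212688 FPKM in the thymus. Fragment totals are not part of the tables, and the ratios of low values between libraries of a tissue put their scaling within 0.895 to 1.09 of cKO replicate 1 of that tissue, so the absolute depth is unknown. The T cell and NKT markers were present throughout: Cd3e, a chain of the T cell receptor complex, was at 1018 to 1048 FPKM in liver cKO and 1022 to 1069 FPKM in liver YFP+ libraries. Rag2, the deleted gene, was at 0 FPKM in the 3 liver cKO libraries and at 1.37, 0.985 and 1.08 FPKM in the liver YFP+ libraries. Rag1, which is not the floxed gene, was lower in liver cKO too, at 0.146 to 0.223 FPKM against 1.33 to 1.96 FPKM in liver YFP+. Rag2 alone therefore does not settle the liver labels. In the thymus Rag2 was listed at 0 in 5 libraries and at 0.015 FPKM in cKO replicate 2, so there it checks no label either.

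In the liver, every one of the 8 genes held less RNA in the cKO than in the YFP+ libraries. The class II chains and the invariant chain stood furthest apart, with cKO means between 3.33 and 6.99% of the YFP+ means. Cd79a was at 13.4%, and Cd79b, H2-DMa and Ciita were at 36.4 to 46.7%. In the thymus the chain genes, Cd74, Ciita and Cd79a stayed below 1 FPKM in all 6 libraries, and only Ciita had groups that did not overlap. A lower value in sorted bulk cells can come from fewer cells of a type or from less RNA per cell, and these cannot be told apart here.

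Of the class II chains, H2-Aa encodes the I-A alpha chain. It was at 1.41, 0.888 and 2.43 FPKM in liver cKO replicates 1 to 3 and at 22.4, 21.3 and 27.0 FPKM in liver YFP+ replicates 1 to 3. The highest cKO library therefore lay far below the lowest YFP+ library, and among the chains H2-Aa varied most between cKO libraries. Its mean was 1.58 ± 0.782 FPKM in cKO and 23.6 ± 3.06 FPKM in YFP+ (SD, n = 3 each, as throughout), a log2(FPKM + 1) difference of -3.29 ± 0.27 (SE).

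H2-Ab1 encodes the I-A beta chain, the partner of H2-Aa, and the 2 genes are neighbours on chromosome 17. It was at 0.624, 0.718 and 0.633 FPKM in liver cKO, against 17.5, 21.5 and 20.3 FPKM in liver YFP+ libraries. The cKO libraries lay close together and far from the others, and the log2 difference of -3.64 ± 0.09 (SE) was the largest of the 8 genes. H2-Aa was 1.24 to 3.83 times H2-Ab1 within liver cKO libraries and 0.989 to 1.33 times within liver YFP+ libraries. These ranges overlapped through cKO replicate 2, and the cKO ratios divide by H2-Ab1 values under 1 FPKM.

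H2-Eb1 encodes the beta chain of I-E, the second class II isotype, and lies next to H2-Aa. It was at 0.459, 0.663 and 0.418 FPKM in liver cKO, against 10.3, 10.4 and 8.64 FPKM in liver YFP+ libraries. These groups did not overlap either, with a log2 difference of -2.83 ± 0.11 (SE). C57BL/6 mice have no working I-E alpha gene, and that gene, listed as H2-Ea-ps, was at 0 FPKM in all 6 liver libraries. H2-Eb1 RNA was thus measured without RNA of its partner, at 0.660 to 0.923 times H2-Ab1 in cKO and 0.426 to 0.587 times in YFP+ libraries.

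Cd74 was the highest of the 8 genes in liver YFP+. It was at 2.84, 2.78 and 3.64 FPKM in liver cKO, against 45.7, 41.3 and 45.5 FPKM in liver YFP+ libraries. The groups stood apart by far more than the spread within either one, and the log2 difference was -3.47 ± 0.11 (SE). Cd74 was 3.87 to 5.75 times H2-Ab1 in cKO libraries and 1.92 to 2.61 times in YFP+ libraries. The cKO ratios divide by H2-Ab1 at 0.624 to 0.718 FPKM. They hold for this chain only, and the ratio of Cd74 to H2-Aa was not taken.

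H2-DMa, the alpha chain of the peptide exchanger, behaved differently. It was at 12.4, 13.2 and 14.0 FPKM in liver cKO, against 31.6, 32.6 and 26.4 FPKM in liver YFP+ libraries. It was the highest of the 8 genes in cKO, and its log2 difference of -1.13 ± 0.10 (SE) fell well short of those of the chains. Within liver cKO libraries H2-DMa was 29.7 to 63.3 times H2-DMb1, which encodes a partner beta chain, against 11.02 to 12.2 times in liver YFP+ libraries. H2-DMa thus outran H2-DMb1 by more in cKO, where the ratios divide by H2-DMb1 at 0.221 to 0.444 FPKM.

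Ciita was scarce everywhere, at 0.060, 0.081 and 0.117 FPKM in liver cKO and 0.185, 0.227 and 0.140 FPKM in liver YFP+ libraries. The groups did not overlap, but the gap between YFP+ replicate 3 and cKO replicate 3 was only slight. With a mean of 0.086 ± 0.0288 FPKM in cKO and 0.184 ± 0.0435 FPKM in YFP+, this gene was not among those tested, and at such levels few fragments carry the value.

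Both genes of the B cell receptor pair were lower in liver cKO. Cd79a was at 0.511, 0.205 and 0.345 FPKM in liver cKO, against 2.57, 3.02 and 2.30 FPKM in liver YFP+ libraries, with a log2 difference of -1.42 ± 0.12 (SE). Cd79b was at 2.76, 1.68 and 2.31 FPKM in liver cKO, against 6.20, 5.13 and 7.18 FPKM in liver YFP+ libraries, with a log2 difference of -1.15 ± 0.19 (SE). The groups of each gene were separate. Cd79b exceeded Cd79a by 5.397 to 8.19 times in cKO and by 1.70 to 3.12 times in YFP+ libraries. The cKO ratios rest on Cd79a at 0.205 to 0.511 FPKM, and whether Cd79a and Cd79b differed in their change was not tested.

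**Figure D2:**
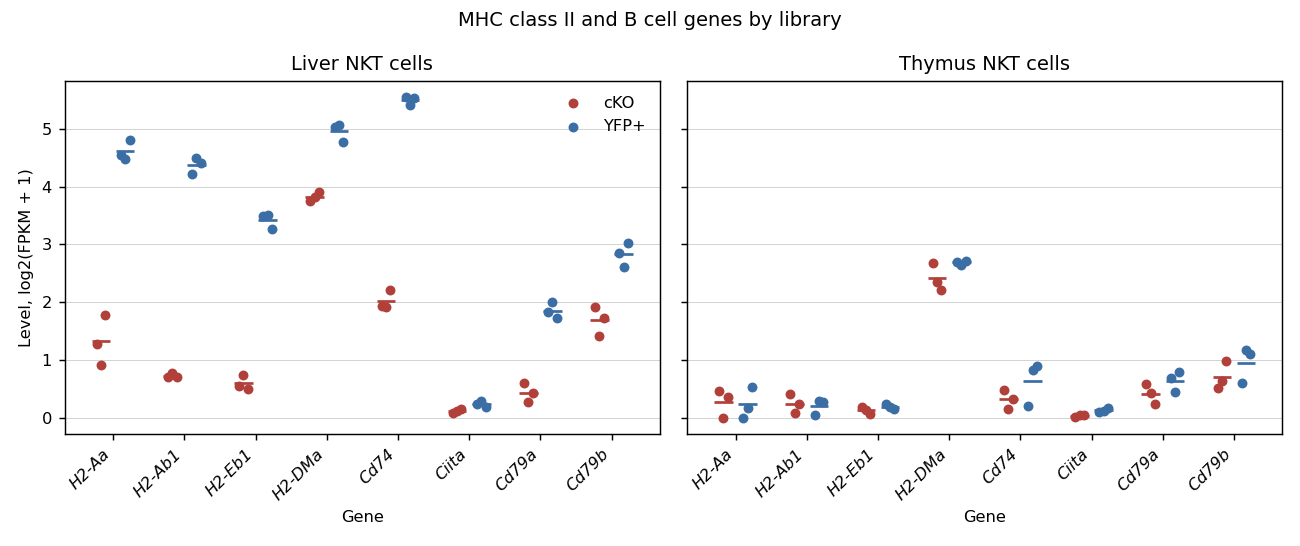
Level of each of the 8 genes in each library, as log2(FPKM + 1), for liver (left panel) and thymus (right panel); points are the 3 libraries of a group, cKO in red and YFP+ in blue, and short lines are group means. In the liver all 8 genes are lower in cKO, by up to 3.64 for H2-Ab1, whereas in the thymus the groups overlap for 7 of 8 genes.

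In order of level, liver cKO ran from H2-DMa through Cd74, Cd79b, H2-Aa, H2-Ab1, H2-Eb1 and Cd79a to Ciita. The ranges of Cd79b and H2-Aa, of H2-Ab1 and H2-Eb1, and of H2-Eb1 and Cd79a overlapped. Liver YFP+ ran from Cd74 through H2-DMa, H2-Aa, H2-Ab1, H2-Eb1, Cd79b and Cd79a to Ciita, and there H2-DMa overlapped with H2-Aa and H2-Aa with H2-Ab1. The class II chains thus stood above the B cell receptor genes in YFP+, while in cKO Cd79b lay between Cd74 and H2-Aa. The 8 genes together summed to 21.1, 20.2 and 23.9 FPKM in liver cKO and to 136.5, 135.6 and 137.4 FPKM in liver YFP+ libraries.

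Over the whole liver table, limma on log2(FPKM + 1) called 2607 of 9591 genes at a Benjamini-Hochberg adjusted p under 0.05, 1889 lower and 718 higher in cKO, or 27.2% of tested genes. With median-ratio scaling of the libraries the split was 1058 lower and 1003 higher. Of the 8 genes 7 reached the tested mean of 1 FPKM, and all 7 were called lower, beside a background of 19.7% of tested genes called lower and 7.49% called higher. The groups did not overlap, with cKO lower, for 8 of 8 genes, beside 18.0% of 19464 genes with any signal. H2-Ab1, H2-Eb1 and Cd79a reached the tested mean only through the YFP+ libraries, and because the 8 genes were picked for such differences nothing is read from these counts. The median log2 difference was -2.13 over the 8 genes and -0.11 over all tested genes.

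In the thymus H2-DMa was the highest of the 8 genes in both groups. It was at 5.42, 4.13 and 3.64 FPKM in thymus cKO, against 5.49, 5.27 and 5.58 FPKM in thymus YFP+ libraries. The groups overlapped through cKO replicate 1. H2-DMa was the 1 gene of the 8 that reached the tested level, and it was not called.

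The chains were near the bottom of the scale in the thymus. H2-Aa was at 0.376, 0 and 0.279 FPKM in thymus cKO, against 0, 0.131 and 0.453 FPKM in thymus YFP+ libraries. H2-Ab1 was at 0.329, 0.055 and 0.184 FPKM in thymus cKO, against 0.032, 0.225 and 0.209 FPKM in thymus YFP+ libraries. Neither gene set the groups apart, and for both the lowest libraries were cKO replicate 2 and YFP+ replicate 1. H2-Eb1 lay between 0.045 and 0.133 FPKM in cKO and between 0.108 and 0.184 FPKM in YFP+, overlapping as well.

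Cd74 was at 0.399, 0.116 and 0.255 FPKM in thymus cKO, against 0.147, 0.782 and 0.851 FPKM in thymus YFP+ libraries. The YFP+ libraries were split, with replicate 1 inside the cKO range and the others above it. Replicate 1 was also the lowest YFP+ library for Cd79b, at 0.515 FPKM beside 1.24 and 1.15, whereas cKO libraries had 0.425, 0.557 and 0.972 FPKM. Cd79a was at 0.494, 0.346 and 0.184 FPKM in thymus cKO, against 0.618, 0.364 and 0.724 FPKM in thymus YFP+ libraries. Both Cd79 genes therefore overlapped between groups.

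Ciita alone had thymus groups that did not overlap, at 0.011, 0.030 and 0.035 FPKM in cKO and 0.075, 0.087 and 0.122 FPKM in YFP+ libraries. This is 1 of 8 genes, beside 19.1% of 21737 genes whose thymus groups did not overlap with cKO lower, and the median log2 difference was -0.16 over the 8 genes and -0.16 over all tested genes. The count is near that background and is no result about the 8 genes. In the thymus limma called 15.7% of 9097 tested genes, 13.1% lower and 2.64% higher in cKO, or 1189 and 240 genes. With median-ratio scaling the thymus split was 422 lower and 367 higher. Set beside the liver, where the tables were scaled separately, Cd74 averaged 44.2 FPKM in liver YFP+ and 0.593 FPKM in thymus YFP+, and 3.09 FPKM in liver cKO and 0.257 FPKM in thymus cKO.

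The remaining genes of the class II pathway were not among the 8, and their tests follow. These lists were also chosen with earlier results of these data known, so the tests are not independent of that choice. Of 6 other chain and loading genes 3 were tested in the liver, and 2 of these were called lower in cKO, with a median log2 difference of -1.21 beside -0.11 over all tested genes. Both called genes reached the tested mean only through the YFP+ libraries, so this count and median depend on the difference itself. When low genes were kept in the fit, 3 of all 6 were called lower and none higher. Over the whole liver table that fit called 1483 lower and 734 higher in cKO of 19464 genes. Later liver counts with low genes kept stand beside these numbers. H2-DMb1, a beta chain of H2-DM, was at 0.382, 0.444 and 0.221 FPKM in liver cKO, against 2.85, 2.96 and 2.16 FPKM in liver YFP+ libraries (limma, log2 difference -1.43, adjusted p = 5.33e-04). H2-DMb2 was at 0.287, 0.714 and 0.364 FPKM in liver cKO, against 2.12, 2.18 and 2.78 FPKM in liver YFP+ libraries (limma, log2 difference -1.21, adjusted p = 0.00169). The copies share reads that Cufflinks divides by a model, so the level of each is uncertain, but in both the groups were separate. H2-Oa, a chain of the H2-O inhibitor of H2-DM, overlapped between groups at 0.890 to 3.63 FPKM in cKO and 3.03 to 5.16 FPKM in YFP+. None of the 6 reached the tested level in the thymus.

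Of the antigen processing genes Ctss, Ctsb and Ifi30 were high in both groups, and the ubiquitin ligase genes March1 and March8 were at or below 0.041 FPKM in all liver libraries. Of 7 in all, 5 were tested in the liver, and 4 were called lower in cKO, with a median log2 difference of -0.74. The same number, 4 of 7, was called lower when low genes were kept. Ctsl reached the tested mean only through YFP+ (adjusted p = 0.00356 by limma with low genes kept). Ctsl, the protease cathepsin L, which trims the invariant chain in thymic epithelium, was at 0.646, 0.515 and 0.578 FPKM in liver cKO, against 3.25, 4.08 and 4.77 FPKM in liver YFP+ libraries (limma, log2 difference -1.66, adjusted p = 3.03e-04). Ctss, cathepsin S, which does so in B cells and dendritic cells, averaged 39.4 ± 3.93 FPKM in liver cKO and 60.0 ± 2.73 FPKM in liver YFP+ libraries (limma, log2 difference -0.60, adjusted p = 0.00342). Thus the protease used by professional presenting cells was abundant in both groups and differed less than the chains. Ctsb, a lysosomal protease, averaged 31.5 ± 2.54 FPKM in cKO and 53.1 ± 0.845 FPKM in YFP+ (limma, adjusted p = 8.72e-04). Lgmn, the asparagine endopeptidase, averaged 2.13 ± 0.408 FPKM in cKO and 4.72 ± 0.202 FPKM in YFP+ (limma, adjusted p = 0.00340).

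In the thymus 4 of these 7 processing genes were tested, and 2 were called lower. Lgmn was at 0.572, 0.547 and 0.772 FPKM in thymus cKO, against 4.10, 3.15 and 3.73 FPKM in thymus YFP+ libraries (limma, log2 difference -1.51, adjusted p = 2.26e-04). Thymus Lgmn reached the tested mean only through YFP+, and was called with low genes kept as well (limma, adjusted p = 0.00411). Ctsb averaged 20.7 ± 1.83 FPKM in thymus cKO and 27.2 ± 2.09 FPKM in thymus YFP+ (limma, adjusted p = 0.0319), and this call was lost in 8 of 11 alternative fits, median-ratio scaling among them (adjusted p = 0.0991, range over the alternatives 0.0117 to 0.103).

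Most factors that sit on class II promoters were measured above 1 FPKM in both groups. Of 11 promoter factors and CIITA inducers 8 were tested in the liver, and 1 was called lower, with a median log2 difference of -0.27. It was Irf1, an interferon response factor that acts on a Ciita promoter, at 11.9, 12.4 and 12.5 FPKM in liver cKO and 25.2, 21.1 and 23.9 FPKM in liver YFP+ libraries (limma, log2 difference -0.87, adjusted p = 7.51e-04). Rfxank, a subunit of the X-element factor RFX, was at 21.2 to 23.1 FPKM in liver cKO, against 20.5 to 22.9 FPKM in liver YFP+ libraries. Nfyb, a subunit of the Y-element factor NF-Y, was at 22.4 to 23.5 FPKM in liver cKO and 22.6 to 28.9 FPKM in liver YFP+. The ranges of both factors overlapped between groups, and neither was called. Rfx5, another RFX subunit, was below the tested level, at 0.202 to 0.481 FPKM in liver cKO and 0.361 to 0.736 FPKM in liver YFP+. Creb1, an X2-element factor, was also under 1 FPKM in both groups. In the thymus 9 were tested, and Irf8, an interferon regulatory factor, was called lower, at 1.40 ± 0.268 FPKM in cKO and 2.91 ± 0.456 FPKM in YFP+ (limma, adjusted p = 0.0120), a call lost without thymus YFP+ replicate 3 (adjusted p = 0.0562, range over the alternatives 0.00505 to 0.0562).

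Other B cell genes went in both directions in the liver. Of 19 mature B cell genes 5 were tested, with 1 called lower and 2 called higher in cKO and a median log2 difference of 0.01. Ly6d, a surface protein of B cells that DP thymocytes also carry, was at 2.63, 1.52 and 1.60 FPKM in liver cKO, against 62.3, 63.9 and 59.2 FPKM in liver YFP+ libraries (limma, log2 difference -4.45, adjusted p = 8.72e-07). Fcer2a, the low-affinity IgE receptor CD23, went the other way, at 9.70, 8.70 and 9.17 FPKM in liver cKO and 5.52, 4.70 and 6.42 FPKM in liver YFP+ libraries (limma, log2 difference 0.65, adjusted p = 0.00808). Spib, a transcription factor of B cells and plasmacytoid dendritic cells, averaged 2.01 ± 0.329 FPKM in cKO and 1.14 ± 0.176 FPKM in YFP+ (limma, adjusted p = 0.0355), and its call was lost in 7 of 10 alternative fits, with adjusted p up to 0.116.

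Defining B cell genes lay below the tested mean. Ms4a1, which encodes CD20, was at 0.039, 0.035 and 0.078 FPKM in liver cKO, against 1.40, 1.71 and 1.15 FPKM in liver YFP+ libraries. When low genes were kept in the fit, limma called Ms4a1 lower in cKO (adjusted p = 0.00289). Pax5, the factor that sets B cell identity, was listed at 0 in all cKO and in 2 of 3 YFP+ liver libraries, where replicate 3 had 0.092 FPKM. Of the 19 genes 10 had liver groups that did not overlap with cKO lower and 2 with cKO higher, beside 18.0 and 13.8% of genes with any signal. With low genes kept 4 were called lower and 1 higher, beside 1483 lower and 734 higher of 19464 genes. The list summed to 17.2 to 19.1 FPKM in liver cKO and 77.2 to 78.9 FPKM in liver YFP+ libraries, most of it Ly6d in YFP+, and the part of B cells in the class II values was not tested. In the thymus none of the 19 reached the tested level, and their sum was 2.81 to 3.30 FPKM in cKO and 2.64 to 3.22 FPKM in YFP+ libraries.

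Of 10 genes of B cell receptor signalling 6 were tested in the liver, with 1 called lower and 1 higher in cKO and a median log2 difference of 0.30; median-ratio scaling called 5 of them. Blk, a Src family kinase that gamma-delta and NKT17 cells also express, averaged 6.20 ± 0.883 FPKM in liver cKO and 11.4 ± 0.831 FPKM in liver YFP+ (limma, log2 difference -0.79, adjusted p = 0.00340). Ptpn6, the phosphatase SHP-1, shared by most blood cells, averaged 133.7 ± 2.47 FPKM in liver cKO and 105.1 ± 3.27 FPKM in liver YFP+ (limma, log2 difference 0.34, adjusted p = 0.00775). The adaptor Blnk and the kinase Btk, which B cells need, were below the tested level. Blnk was at 0, 0 and 0.132 FPKM in liver cKO, against 0.224, 1.09 and 0.283 FPKM in liver YFP+ libraries. Btk was at 0.025 to 0.228 FPKM in liver cKO, against 0.370 to 0.943 FPKM in liver YFP+ libraries. The groups of both were separate, with cKO lower, but neither was called with low genes kept (limma, adjusted p = 0.183 for Blnk and 0.103 for Btk). In the thymus 2 of 6 tested were called lower, Blk at 2.32 ± 0.697 FPKM in cKO and 12.01 ± 2.96 FPKM in YFP+ (limma, adjusted p = 5.83e-04) and Ptpn6 at 81.7 ± 9.39 FPKM in cKO and 104.5 ± 1.503 FPKM in YFP+ (limma, adjusted p = 0.0347). The thymus call of Ptpn6 was lost in 8 of 11 alternative fits, with adjusted p up to 0.165.

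B cell precursor genes overlapped with those of immature thymocytes. Of 10 genes 3 were tested in the liver, and Dntt, the terminal transferase of both lineages, was called lower at 0.486, 0.768 and 0.385 FPKM in liver cKO and 16.4, 16.3 and 15.7 FPKM in liver YFP+ libraries (limma, log2 difference -3.48, adjusted p = 1.98e-06). Dntt reached the tested mean only through YFP+, and was called with low genes kept as well (limma, adjusted p = 1.49e-04). Rag1, the partner of Rag2, was at 0.196, 0.146 and 0.223 FPKM in liver cKO, against 1.96, 1.33 and 1.89 FPKM in liver YFP+ libraries. Genes of the pre-B receptor gave no such separation: Igll1 was at 0 in all 3 YFP+ libraries, and Vpreb1 overlapped at 0.189 to 0.511 FPKM in cKO and 0.091 to 0.836 FPKM in YFP+. Cd93, a receptor of early B cells and of other cell types, was called higher in liver cKO, at 10.9 ± 1.06 FPKM in cKO and 5.85 ± 0.940 FPKM in YFP+ (limma, adjusted p = 0.00457). In the thymus the 1 gene tested, Il7r, was called lower at 297.8 ± 37.6 FPKM in cKO and 389.6 ± 39.7 FPKM in YFP+ (limma, adjusted p = 0.0471), a call lost in 7 of 11 alternative fits, with adjusted p up to 0.212.

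Plasma cell genes were also lower in liver cKO for 2 of 4 tested, with a median log2 difference of -0.79. Igj, the J chain of secreted antibody, was at 1.66, 2.97 and 6.66 FPKM in liver cKO, against 13.06, 13.05 and 9.13 FPKM in liver YFP+ libraries (limma, adjusted p = 0.0128). This call was lost without liver YFP+ replicate 2 (adjusted p = 0.0512) and when low genes were kept (adjusted p = 0.0560), with a range over the alternatives of 0.00277 to 0.0560. The symbol 2010001M09Rik, the older name of Mzb1, a chaperone of B and plasma cells, was at 0.077, 0.208 and 0.155 FPKM in liver cKO, against 2.49, 1.91 and 2.74 FPKM in liver YFP+ libraries (limma, log2 difference -1.55, adjusted p = 3.66e-04). This gene reached the tested mean only through YFP+, and with low genes kept it was the 1 gene of the 6 that was called (limma, adjusted p = 0.00289). Of 13 genes listed 6 were found by symbol, and no antibody heavy or light chain gene was among them, so these could not be analysed. In the thymus 1 of 4 tested was called lower, Sdc1, the plasma cell marker syndecan-1 that NKT17 cells also carry, at 0.496 ± 0.0382 FPKM in cKO and 2.76 ± 0.748 FPKM in YFP+ (limma, adjusted p = 0.00131). It too passed only through YFP+ (adjusted p = 0.0132 by limma with low genes kept).

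**Figure D3:**
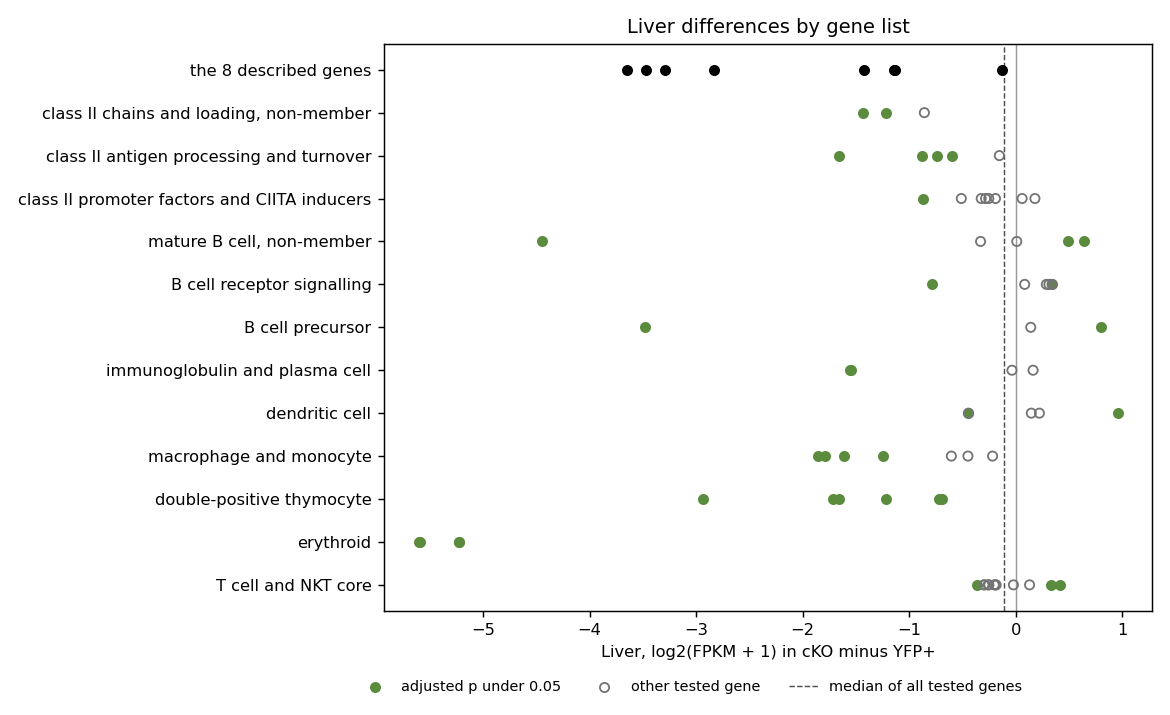
Liver difference in log2(FPKM + 1), cKO minus YFP+, for the 8 described genes (black, all 8, no test) and for the tested genes of each list, filled green where limma's adjusted p was under 0.05 and open otherwise; the dashed line is the median of all tested genes, -0.11. The loading, processing, macrophage, DP thymocyte and erythroid genes lie mostly to the left, while the B cell and T cell lists spread to both sides.

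Markers of other cells moved with the same liver groups. Of 19 macrophage and monocyte genes 7 were tested and 4 were called lower in cKO, with a median log2 difference of -1.24, and the list summed to 33.0 to 40.02 FPKM in cKO and 83.0 to 112.8 FPKM in YFP+ libraries. Lyz2, a lysozyme of myeloid cells, averaged 12.2 ± 2.59 FPKM in cKO and 46.7 ± 8.63 FPKM in YFP+ (limma, adjusted p = 3.58e-04), and its close copy Lyz1 3.16 ± 0.591 FPKM in cKO and 13.5 ± 2.87 FPKM in YFP+. C1qb, a complement subunit of macrophages, averaged 0.504 ± 0.167 FPKM in cKO and 3.61 ± 0.605 FPKM in YFP+ (limma, adjusted p = 3.66e-04), and C1qa 0.203 ± 0.202 FPKM in cKO and 1.95 ± 1.03 FPKM in YFP+ (limma, adjusted p = 0.0116). C1qa and C1qb reached the tested mean only through YFP+. With low genes kept 8 of the 19 were called lower and none higher, C1qa (limma, adjusted p = 0.0459), C1qb (adjusted p = 0.00412) and C1qc (adjusted p = 0.00204) among them. The same fit called 1483 lower and 734 higher of 19464 liver genes. Of resident macrophage markers, Timd4 was at 0, 0.064 and 0 FPKM in liver cKO, against 0.174, 0.267 and 0.136 FPKM in liver YFP+ libraries, and Cd5l reached 0.110 FPKM in cKO and 0.871 FPKM in YFP+. Clec4f and Vsig4, which mark Kupffer cells, were at or below 0.056 FPKM in all liver libraries. The part of these cells in the class II values was not tested.

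Dendritic cell markers included calls in both directions. Of 15 genes 5 were tested in the liver, with 1 called lower and 1 higher in cKO and a median log2 difference of 0.15. Siglech, a lectin of plasmacytoid dendritic cells, was at 6.39, 6.33 and 6.54 FPKM in liver cKO, against 2.71, 2.54 and 3.25 FPKM in liver YFP+ libraries (limma, log2 difference 0.96, adjusted p = 0.00130). Cst3, the secreted inhibitor cystatin C, averaged 113.5 ± 8.74 FPKM in cKO and 156.0 ± 24.4 FPKM in YFP+ (limma, adjusted p = 0.0239), a call lost in 6 of 11 alternative fits, with adjusted p up to 0.0903. Itgax and Flt3, which define dendritic cells, were at or below 0.119 FPKM in cKO and at 0.146 to 0.423 FPKM in YFP+ libraries. Of the 15 genes 7 had liver groups that did not overlap with cKO lower and 1 with cKO higher, beside the same 18.0 and 13.8%. With low genes kept 2 were called lower, Tcf4 (limma, adjusted p = 0.0352) and Cox6a2 (adjusted p = 0.0391), and 1 higher. The list summed to 167.3 to 185.4 FPKM in cKO and 199.8 to 237.1 FPKM in YFP+, most of it Cst3 in both groups. Fscn1 was at 0 in all cKO libraries, and the part of dendritic cells was not tested. In the thymus 1 of 4 tested was called lower, Pacsin1, an endocytic adaptor, at 3.999 ± 0.811 FPKM in cKO and 8.15 ± 0.902 FPKM in YFP+ (limma, adjusted p = 0.00522).

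Red cell and immature thymocyte RNA was also lower in liver cKO. All 4 tested erythroid genes, the globins, were called lower in liver cKO, and the list summed to 9.83 to 14.97 FPKM in cKO and 641.1 to 742.3 FPKM in YFP+. Hbb-b1, a beta globin with a close copy that shares its reads, was at 3.80, 2.001 and 3.31 FPKM in liver cKO, against 199.7, 198.1 and 174.4 FPKM in liver YFP+ libraries (limma, log2 difference -5.59, adjusted p = 7.02e-07). All 6 tested DP thymocyte genes of a list of 8 were called lower, with sums of 24.7 to 25.8 FPKM in cKO and 67.5 to 75.9 FPKM in YFP+. Among them, Cd8b1, a CD8 chain, averaged 0.844 ± 0.233 FPKM in cKO and 13.1 ± 1.89 FPKM in YFP+ (limma, adjusted p = 1.63e-05), although the sort was set against CD8. Cd4 averaged 1.90 ± 0.528 FPKM in cKO and 8.44 ± 0.437 FPKM in YFP+ (limma, adjusted p = 2.68e-04). Cd8b1 and Themis, another gene of this list, reached the tested mean only through YFP+, and all 8 genes of the list were called lower with low genes kept. Their part in the class II and B cell values was not tested.

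By contrast, the T cell and NKT core genes were near even in the liver. Of 12 tested, 2 were called higher and 1 lower in cKO, with a median log2 difference of -0.19, and they summed to 3813 to 3884 FPKM in cKO and 4029 to 4418 FPKM in YFP+. Il2rb, the IL-2 and IL-15 receptor chain, averaged 498.3 ± 18.7 FPKM in liver cKO and 374.7 ± 33.8 FPKM in liver YFP+ (limma, log2 difference 0.41, adjusted p = 0.00857). The calls of Cd3d (adjusted p = 0.0231) and Cd247 (adjusted p = 0.0325) by limma were lost in 6 and 5 of 11 alternative fits, with adjusted p up to 0.160 and 0.107. Stromal markers were low, the liver endothelium list summing to 0.949 to 1.17 FPKM in cKO and 1.37 to 2.03 FPKM in YFP+, with Clec4g, Lyve1 and Cdh5 at 0 in all cKO and Kdr and Cdh5 at 0 in all YFP+ libraries. Its 1 tested gene, Fcgr2b, was not called.

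In the thymus the marker lists were mostly under the tested level. The 1 tested macrophage gene, Fcgr3, an Fc receptor that NK-type lymphocytes share, was called lower at 1.07 ± 0.0820 FPKM in cKO and 2.12 ± 0.0689 FPKM in YFP+ (limma, adjusted p = 0.00717), and Fcgr2b, the inhibitory Fc receptor, was called higher at 1.88 ± 0.551 FPKM in cKO and 0.339 ± 0.110 FPKM in YFP+ (limma, adjusted p = 0.00438). Fcgr2b reached the tested mean only through cKO (adjusted p = 0.0254 by limma with low genes kept). No thymic epithelium gene reached the tested level in either tissue, and that list summed to 0.838 to 1.19 FPKM in thymus cKO and 1.001 to 1.38 FPKM in thymus YFP+. The erythroid list summed to 0.179 to 107.6 FPKM in thymus cKO, the top value in replicate 1, and to 0.152 to 0.860 FPKM in thymus YFP+, with none of its 4 tested genes called. All 3 tested DP thymocyte genes were called lower, among them Cd4 at 0.429 ± 0.194 FPKM in cKO and 2.88 ± 0.891 FPKM in YFP+ (limma, adjusted p = 0.00309). Cd4 passed only through YFP+ there (adjusted p = 0.0232 by limma with low genes kept). Of 12 core genes 1 was called higher and 4 lower in thymus cKO, among them Zbtb16, the NKT factor PLZF, at 3.76 ± 0.565 FPKM in cKO and 12.3 ± 1.26 FPKM in YFP+ (limma, adjusted p = 2.38e-04).

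**Figure D4:**
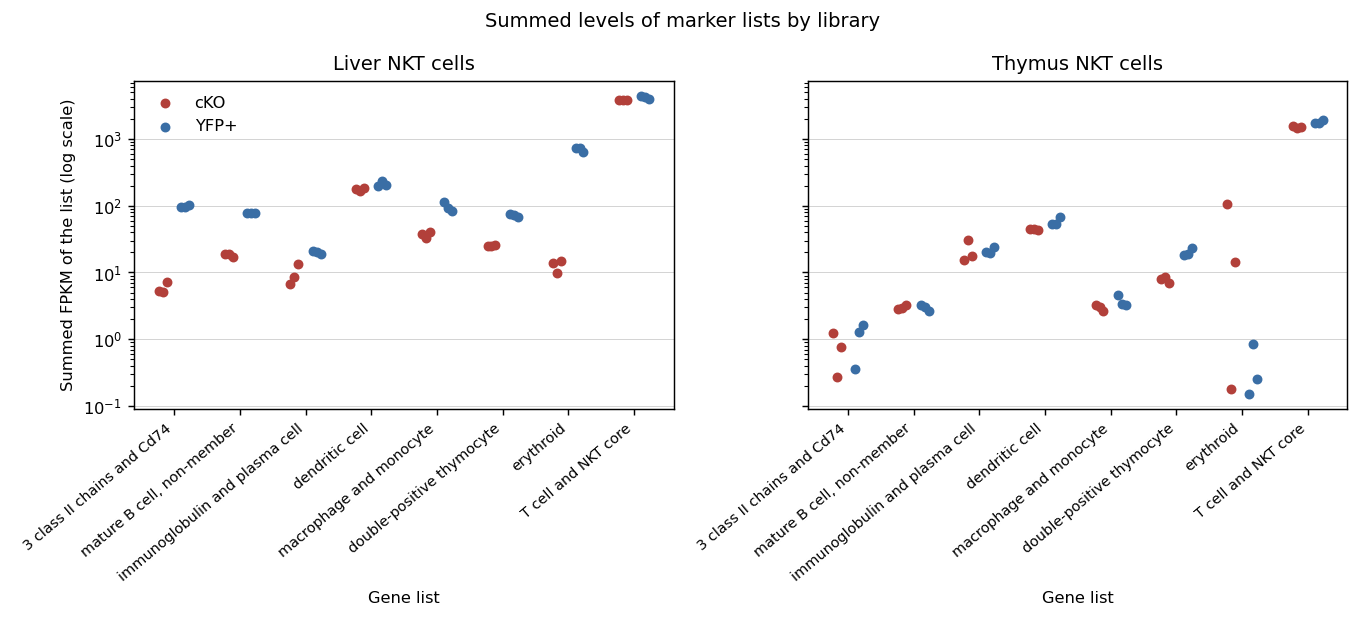
Summed FPKM, on a log scale, of the class II chains with Cd74 and of 7 marker lists in each library of liver (left panel) and thymus (right panel), cKO in red and YFP+ in blue, 3 libraries a group. In the liver the class II sum is 5.05 to 7.12 FPKM in cKO and 94.6 to 101.4 FPKM in YFP+. The sums of all 7 marker lists lie lower in cKO too. Some of these sums are mostly a single gene. Ly6d makes up most of the mature B cell sum in liver YFP+, and Cst3 most of the dendritic cell sum in both liver groups. The points of the dendritic cell list and of the T cell and NKT core lie closest together. Whole liver libraries also sum to less in cKO, at 450429 to 465304 FPKM against 509267 to 558042 FPKM in YFP+. As a share of the library sum, the T cell and NKT core is higher in cKO and the dendritic cell list overlaps between groups. The class II share stays lower in cKO.

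The genes most like the class II and B cell genes over the 6 liver libraries were found by the Pearson correlation of log2(FPKM + 1) with the mean standardised level of the 7 genes above 1 FPKM, among 9584 other genes. The nearest was Plac8, a small cysteine-rich protein of many blood cells, at 2.18, 1.38 and 1.99 FPKM in liver cKO and 47.8, 43.5 and 45.7 FPKM in liver YFP+ libraries (r = 0.9996). Next came 3 beta globin entries, Hbb-b1, Hbb-b2 and Beta-s, which share reads, with Ssna1, a microtubule-binding protein, and Sdhc, a subunit of succinate dehydrogenase, among them (r from 0.9992 to 0.9996). With 2 groups of 3 libraries, any gene that differs between the groups scores high, and 89 genes exceeded 0.99. In the thymus, where Cd74 stood in for the set, the nearest of 9096 genes was Ireb2, an iron regulatory protein (r = 0.989), at 3.25, 2.92 and 2.98 FPKM in thymus cKO and 2.92, 3.56 and 3.70 FPKM in thymus YFP+ libraries. No gene there exceeded 0.99. Cd74 was at only 0.116 to 0.851 FPKM in these libraries, and the highest of 9096 correlations over 6 libraries is a description only. The test of the liver difference against the thymus difference called 15.1% of 9739 genes of the whole series; the 8 genes were left out of it as results, since the liver values had chosen them.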

How the data were processed

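RNA was measured in 12 libraries, 3 per group. CD4+ and CD8+ thymocytes were removed before the NKT cell sort and cDNA came from a SMARTer Ultra Low Input kit, per the labels' protocols. The authors deposited FPKM values in separate tables of liver and thymus. The submitters' processing notes name TopHat2 2.8.0, Cufflinks 2.1.1 and mm9. How strand was handled is not stated there, and overlapping genes cannot be told apart.

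From these values limma-trend (limma 3.58.1, R 4.3.3) was fitted to log2(FPKM + 1) where a gene averaged 1 FPKM or more, with Benjamini-Hochberg adjustment over all tested genes at 0.05, within each tissue and for the difference between tissues. The pseudocount understates changes of low genes. The scripts were tested on simulated data. The 8 genes and the 14 lists were chosen with earlier results of these data known. Of each list the text names up to 4 called genes with separate groups, by size of change, or otherwise the highest; other genes named were chosen for their role or after their values were seen. Alternatives were another pseudocount (0.1), no filter or a mean of 5 FPKM, median-ratio scaling, a replicate block and leaving out each library. Depth is unknown, so no counting intervals are given. All value columns were mapped. Some genes of the lists are not reported here by name.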

Additional observations from a re-analysis of the deposited data

Results flagged for a closer look

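Among the named genes of the pathway and marker lists, 24 had a cKO minus YFP+ difference that was not the same in liver and thymus by the test of that difference itself (limma on all 12 libraries, adjusted p of 1.18e-07 to 0.0358, liver difference minus thymus difference on the log2 scale). The 8 class II and B cell genes are not listed, because they were chosen for their levels, and what that fit gave for them is not used. Ctsl, C1qb and Dntt averaged under 1 FPKM in every group but liver YFP+. They reached the tested mean only through that group, so their calls depend on the difference itself. Dntt, Lyz1, Fcer2a and Siglech were at or below 0.214 FPKM in all thymus libraries. Lyz2, C1qb, Cd93 and Ly6d were at or below 0.613 FPKM there. On the log2(FPKM + 1) scale the thymus differences of all these genes are held small, so their values mostly restate the liver difference.

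Negative values mean that the liver difference lay below the thymus one. Of the pathway and B cell lists these were Ly6d at -4.63, Dntt at -3.62, Ctsl at -1.43 and Irf1 at -0.66. Of the macrophage and endothelium lists they were Lyz1 at -1.77, Lyz2 at -1.75, C1qb at -1.66 and Fcgr2b at -1.43. Of the DP thymocyte list they were Cd8b1 at -2.83 and Themis at -1.17. The globins, whose copies share reads and whose thymus values were highest in cKO replicate 1, stood at the far end, with Hbb-b1 at -8.12, Hbb-b2 at -8.14, Hba-a1 at -6.90 and Hba-a2 at -6.90.

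Positive values mean that the liver difference lay above the thymus one. Of the B cell lists these were Blk at 1.18, Cd93 at 0.95, Fcer2a at 0.64, Il7r at 0.53, Ptpn6 at 0.70 and Sdc1 at 1.42. Of the other lists they were Lgmn at 0.63, Siglech at 0.93, Zbtb16 at 1.30 and Il2rb at 0.86. No sample was examined for standing apart from its group by this rule, since groups of 3 are too small.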

How the results depend on the processing

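The summed level of the 8 genes, as a log2 ratio of group means (cKO over YFP+), was -2.65 in the liver, -2.54 with median-ratio scaling and -2.72 to -2.60 with a library left out. In the thymus it was -0.40, -0.25 with median-ratio scaling and -0.58 to -0.31 with a library left out. No liver difference of the 8 genes changed sign under any alternative run. In the thymus that of H2-Aa, 0.03, was -0.06, -0.01 and -0.09 when cKO replicate 1, cKO replicate 3 or YFP+ replicate 1 was dropped, that of H2-Ab1, 0.04, was -0.04 when either replicate 1 was, and the other 6 kept their sign. With a pseudocount of 0.1 the liver differences were -3.92 for H2-Aa, -4.71 for H2-Ab1, -4.03 for H2-Eb1, -3.80 for Cd74, -1.18 for H2-DMa, -0.61 for Ciita, -2.64 for Cd79a and -1.43 for Cd79b; those of the thymus that moved by more than the replicate spread were -0.35 for H2-Eb1, -0.81 for Cd74, -0.63 for Ciita and -0.62 for Cd79a. Genes called in the liver numbered 2607, and 1539 to 2640 with a library left out (1623 and 1644 when cKO replicates 1 and 2 were dropped in turn, 1539 when YFP+ replicate 2 was). Genes called in the thymus numbered 1429, but 801 with no filter, 789 with median-ratio scaling (367 higher, 422 lower in cKO), 787 with the replicate block, and 472 to 2408 with a library left out (2408, 645 and 558 when cKO replicates 1, 2 and 3 were dropped in turn, and 596, 634 and 472 when YFP+ replicates were). The cause was not tested. Genes called for the difference between tissues numbered 1466 and stayed within 1.5 times of it in every alternative. Scaling by median ratios moved the median gene in the thymus to -0.04 from -0.16. The deviations of same-numbered libraries correlated at -0.06 to 0.07, and those of other pairs at -0.11 to 0.11. Such values cannot show whether replicates were paired, and the labels give only a number. The replicate block called 2214 genes in the liver and 1058 between tissues. The depth is unknown, and values under 1 FPKM, thus most in the thymus, rest on few fragments.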
